A study of Mus musculus with 3 samples.

Results

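Muc3 and 8 further genes of the enterocyte surface (Muc13, Cdhr2, Cdhr5, Ush1c, Myo7b, Vil1, Ezr and Myo1a) were followed through single-cell RNA sequencing (scRNA-seq) of the mouse intestinal epithelium with and without Arid3a. They were matched by symbol among the 51912 genes of the count matrices, and all 9 were found. Arid3a encodes a transcription factor that binds A+T-rich DNA. The Arid3a cKO group had 2 libraries from VillinCreERT2 Arid3a fl/fl mice, in which tamoxifen activates a Cre recombinase driven by the Villin promoter and so removes the floxed gene from epithelial cells. The WT group had 1 library of the VillinCreERT2 genotype, so Cre and tamoxifen were common to both groups. Mice were injected between 8 and 10 weeks of age and harvested 1 month after the first dose. Dissociated crypts were sorted for living Epcam-positive cells without CD45 or CD31. With 1 WT library no test of genotype was possible. The genes were chosen by their UMI counts in this same contrast together with their known roles, with earlier results in view, so their values are a description.

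The apical face of an enterocyte is covered by microvilli, which together form the brush border, and by a glycocalyx of membrane-bound mucins that keeps microbes and particles away from the membrane. Muc3 and Muc13 are 2 of these mucins. Cdhr2 and Cdhr5 are protocadherins that link neighbouring microvilli at their tips, and Ush1c (harmonin) and Myo7b, a myosin, belong to the complex that holds them there. Vil1 (villin) bundles the actin core of the microvillus, Ezr (ezrin) ties actin to the membrane, and Myo1a is a myosin that bridges the core and the membrane. Vil1 is also the gene whose promoter drives Cre in both groups.

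The matrices held 25554 barcodes, of which 5594 (21.9%) had at least 1000 genes and at most 15% mitochondrial UMIs and were kept. WT was at the low end in quality, with 16.2% of its barcodes kept against 31.2% and 22.5% in Arid3a cKO. It had 79.2% over the mitochondrial limit against 66.4% and 75.6%. Its kept cells had a median of 5.52% mitochondrial UMIs against 4.64% and 4.07%. In the shares kept and over the limit, Arid3a cKO 2 was nearer to WT than to Arid3a cKO 1. As WT is 1 library, its quality and genotype cannot be told apart. A UMI (unique molecular identifier) counts 1 captured transcript. The kept cells numbered 2134 and 1550 in the Arid3a cKO libraries and 1910 in WT, with medians of 29895 to 35764 UMIs per cell, and pairs of libraries shared 0 to 2 barcodes among kept cells. Arid3a was measured at 0.592 and 0.894 CPM (the UMIs of a gene relative to all UMIs of the same cells) in the Arid3a cKO libraries and at 2.57 CPM in WT, from 42, 52 and 161 UMIs. Of 13 clusters, 10 were named from marker genes, and the 9 genes were left out of the clustering. Enterocyte-like cells formed 4 clusters with 834, 598 and 698 cells in Arid3a cKO 1, Arid3a cKO 2 and WT, the order used for all values below. Clusters 1, 2, 5 and 11 carried 22, 18, 20 and 22 of the 22 enterocyte markers at 1.5 times or more the level of other cells. The naming rule itself asked for at least 50% of the list at this level, so these counts are no check of the name. Cluster 11 had 0 of the markers among its top 50 genes and was named by this level alone.

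Upstream sequences are shown for the 2 mucins and for the 2 protocadherins, the mucins because they differed from WT in opposite directions and the protocadherins because they are the 2 tip-link partners. RefSeq promoters (GRCm38.p6) were found for 8 of the 9 genes, and the 250 bases before the first listed start are printed on the strand of the gene, with matches to the motifs below in capitals. These are chr5:137166047-137166296 on the minus strand for Muc3, chr16:33793787-33794036 on the plus strand for Muc13, chr13:54701213-54701462 on the plus strand for Cdhr2, and chr7:141276787-141277036 on the minus strand for Cdhr5.
Muc3: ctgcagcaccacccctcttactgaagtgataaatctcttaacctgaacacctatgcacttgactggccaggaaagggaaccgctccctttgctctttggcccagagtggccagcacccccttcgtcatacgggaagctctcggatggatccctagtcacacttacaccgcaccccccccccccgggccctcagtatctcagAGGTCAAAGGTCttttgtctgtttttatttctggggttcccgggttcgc
Muc13: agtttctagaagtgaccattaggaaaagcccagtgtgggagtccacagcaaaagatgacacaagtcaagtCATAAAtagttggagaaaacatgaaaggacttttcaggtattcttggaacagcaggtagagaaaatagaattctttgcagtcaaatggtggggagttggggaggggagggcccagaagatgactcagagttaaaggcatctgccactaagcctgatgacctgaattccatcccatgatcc
Cdhr2: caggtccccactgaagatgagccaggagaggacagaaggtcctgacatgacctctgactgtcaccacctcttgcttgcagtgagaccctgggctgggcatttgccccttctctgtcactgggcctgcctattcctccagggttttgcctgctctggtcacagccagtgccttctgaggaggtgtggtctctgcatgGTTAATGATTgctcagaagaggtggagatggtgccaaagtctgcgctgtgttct
Cdhr5: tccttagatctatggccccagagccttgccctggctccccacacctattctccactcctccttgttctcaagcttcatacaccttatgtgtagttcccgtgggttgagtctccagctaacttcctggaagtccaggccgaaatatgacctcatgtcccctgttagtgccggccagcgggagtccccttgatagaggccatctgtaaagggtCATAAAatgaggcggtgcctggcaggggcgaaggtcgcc
Both strands were searched for 4 motifs, which were chosen after these promoters had been read. AGGTCA and AGGTC with any 1 base between them form a direct repeat of the kind bound by HNF4 and related nuclear receptors, GTTAAT and ATT with any 1 base between them form the core of an HNF1 site, CATAAA is a core bound by CDX factors, and ATTAAA is an A+T-rich motif of the kind assigned to Arid3a. The first lay 49 to 38 bases before the Muc3 start and was found in 25 of 32851 upstream windows of the same length (0.0761%). Only exact matches were counted. The Vil1 window, which is not printed, held this motif with 1 letter changed. So did the window before the second listed Muc13 start, on the opposite strand. How often such near matches occur was not counted, so the share does not set Muc3 apart from these genes. The HNF1-type motif lay 54 to 45 bases before the Cdhr2 start, and 0.371% of windows held it. CATAAA was found in Cdhr5, 39 to 34 bases before the start, and in Muc13, 180 to 175 bases before it, and in 10.8% of windows. ATTAAA matched in none of the printed windows and in 12.7% of all windows. No match overlapped another. A match describes letters only, and Arid3a binding was not measured here.

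The counted Muc3 gene (ENSMUSG00000037390) spans 137134922 to 137149322 on the minus strand of chromosome 5 in the GENCODE M21 annotation of GRCm38. The RefSeq start printed above lies further upstream, where GENCODE lists a separate lincRNA, Gm3054 (137154029 to 137166070, same strand). Gm3054 had 4.47, 5.16 and 3.71 CPM in enterocyte-like cells, and the counting intervals overlapped. A neighbouring mucin gene of similar name, Muc3a, had 2.37, 1.69 and 2.35 CPM in enterocyte-like cells and 176, 157 and 158 CPM in goblet-like cells, so its counts followed another cell type than those of Muc3. Muc13 (chromosome 16), Ush1c (chromosome 7), Myo7b (chromosome 18), Vil1 (chromosome 1) and Ezr (chromosome 17) each overlap a gene annotated on the opposite strand.

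To see where the 9 genes are used, UMIs were summed per library and cell class. Each gene is compared with itself across classes, since its level also depends on transcript length and capture. Enterocyte-like cells had the highest mean level of 6 genes, Muc3, Muc13, Myo7b, Vil1, Ezr and Myo1a. Muc3 had 39.2% of its enterocyte level in the large unnamed cluster 3, 18.2% in enteroendocrine-like, 17.1% in goblet-like 14.0% to 14.5% in TA-like and ISC-like and 8.01% in tuft-like cells. TA denotes transit-amplifying cells and ISC intestinal stem cells. Muc13 was broader, at 88.2% of its enterocyte level in goblet-like and 70.7% in tuft-like cells. Cdhr2 and Cdhr5 peaked in tuft-like cells, which also bear a tuft of long microvilli. Cdhr5 measured 1629, 1002 and 1517 CPM there against 702, 754 and 787 CPM in enterocyte-like cells, and every tuft-like value lay above every enterocyte-like one. For Cdhr2 the tuft-like values were 714, 398 and 639 CPM and the enterocyte-like ones 440.3, 481 and 459 CPM, and these overlapped, since Arid3a cKO 2 was low with only 27 tuft-like cells. Ush1c was the most even gene, with enteroendocrine-like, enterocyte-like, cluster 3 and tuft-like cells all at 86.6% or more of its highest class. By CPM all 9 genes were lowest in Paneth-like cells, at 1.42% to 17.4%. These cells had 4.34 times the median UMIs of all kept cells, averaged over libraries, and defensin genes were among their leaders. A low CPM there therefore need not mean few UMIs per cell.

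**Figure D1:**
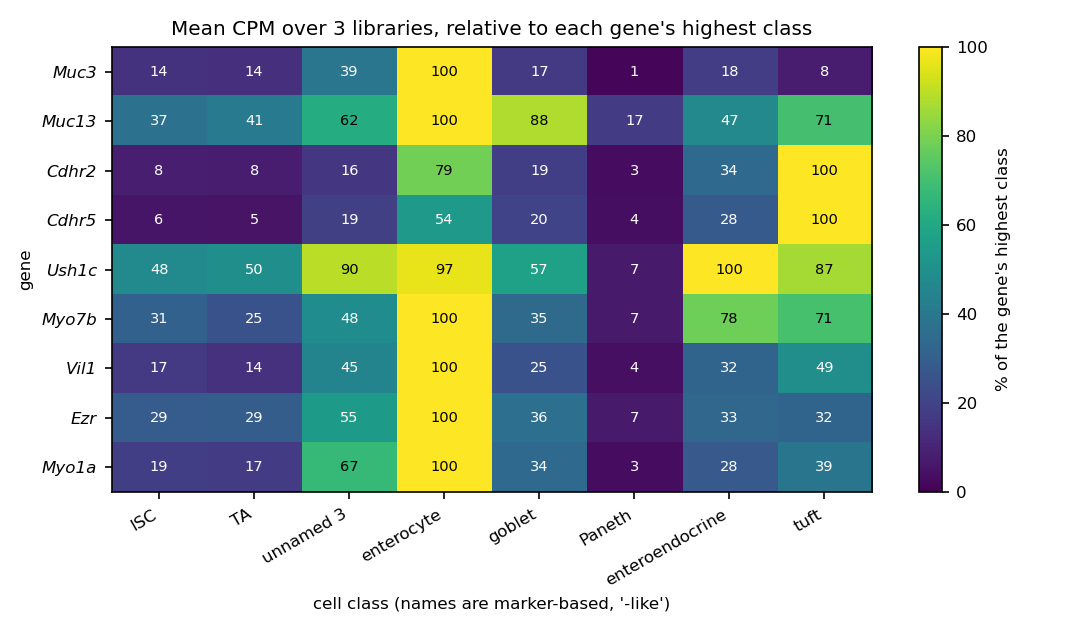
Mean CPM over the 3 libraries for the 9 genes (rows) in 8 marker-named or unnamed cell classes (columns), as a percentage of each gene's highest class. Enterocyte-like cells are at 100% for 6 genes, tuft-like cells for Cdhr2 and Cdhr5, and enteroendocrine-like cells for Ush1c.

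Between ISC- and TA-like cells together and enterocyte-like cells, the mean log2 ratio over the 3 libraries was 3.24 ± 0.05 for Cdhr5 and 3.15 ± 0.04 for Cdhr2 (SD, n = 3 libraries). It was 2.62 ± 0.08 for Vil1, 2.41 ± 0.06 for Myo1a, 1.73 ± 0.08 for Ezr, 1.72 ± 0.08 for Myo7b and 0.93 ± 0.12 for Ush1c. The mucins had the widest spread between libraries, with 2.58 ± 0.43 for Muc3 and 1.32 ± 0.22 for Muc13. For Muc3 the step was 2.85 and 2.81 in the Arid3a cKO libraries and 2.08 in WT. For Muc13 it ran the other way, at 1.09 and 1.33 against 1.54.

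In enterocyte-like cells Muc3 stood at 225 CPM (95% interval 219 to 231, 5988 UMIs) in the first Arid3a cKO library, 231 CPM (224 to 238, 4792 UMIs) in the second and 138 CPM (133 to 143, 2941 UMIs) for WT. Intervals are exact Poisson intervals and cover counting error only, as the UMIs of a library come from a single preparation. Both Arid3a cKO libraries lay above WT and close to each other. On the scale of log2(CPM + 5), used for all ratios to WT, Muc3 was higher by 0.69 and 0.72, a mean fold of 1.63. It ranked 16th of 4731 genes with a mean of at least 20 CPM by this ratio. Muc3 was the only one of the 9 that was at least 0.5 log2 units higher in both libraries, a step taken by 0.655% of all genes (31 of 4731), and none of the 9 was at least 0.5 lower in both (0.972%, 46 genes). At a step of 1 log2 unit none of the 9 passed in either direction, against 0.38% of all genes.

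With the same sign asked of both libraries, 1 of the 9 genes was higher (34.3% of all genes) and 7 were lower (41.8%), and Cdhr2 was lower in one library and higher in the other. The median log2 ratio of the 9 genes was -0.11 beside -0.01 over all 4731 genes. The counting intervals of both Arid3a cKO libraries lay apart from that of WT for 6 genes, Muc3 above (10.4% of all genes) and Muc13, Cdhr5, Myo7b, Vil1 and Myo1a below (14.3%), and in either direction for 24.7% of all genes. All 9 genes were among the 4731, and members with many UMIs pass this rule at small differences.

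**Figure D2:**
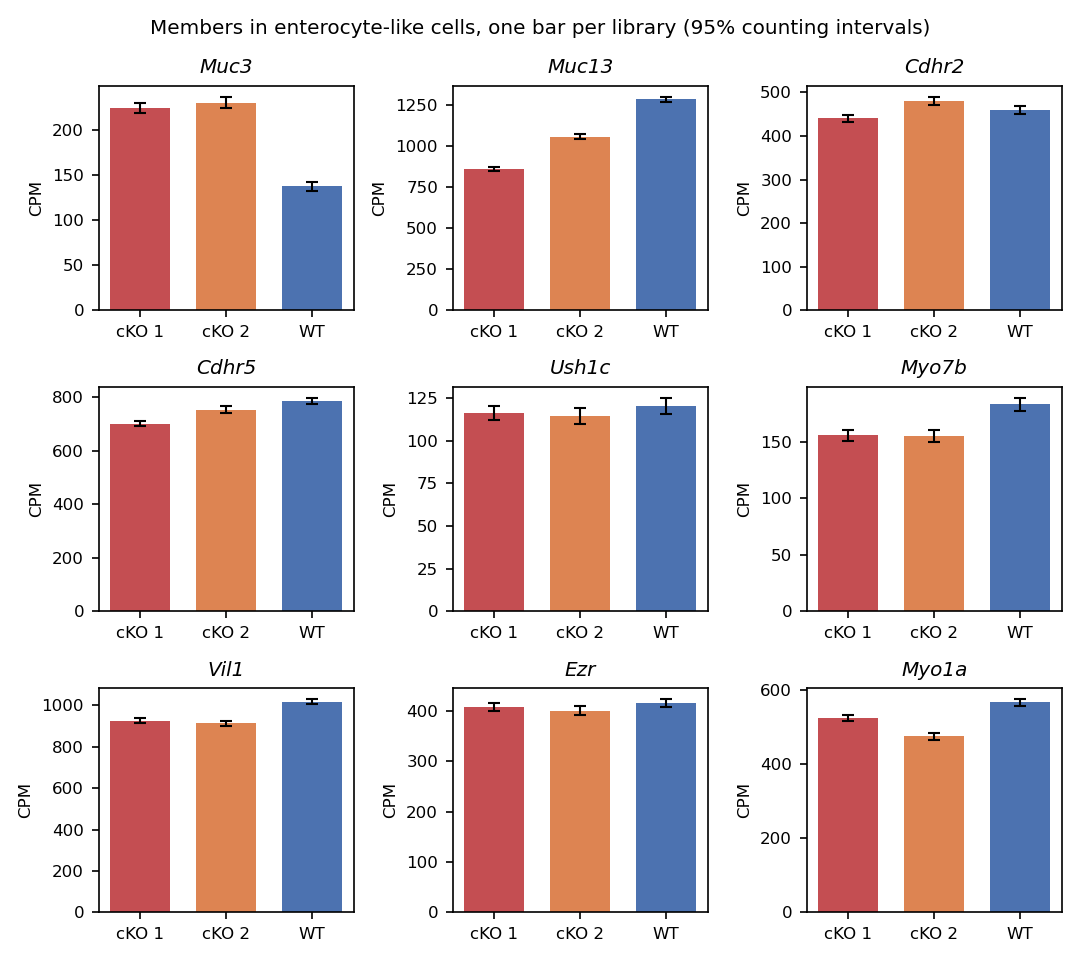
CPM of the 9 genes in enterocyte-like cells, 1 bar per library with its exact 95% Poisson interval, and with a separate axis from 0 for each gene. Muc3 is higher in both Arid3a cKO libraries (225 and 231 CPM against 138 CPM) and Muc13 is lower in both (858 and 1055 CPM against 1284 CPM). The other 7 genes differ less from WT, with the intervals of Cdhr5, Myo7b, Vil1 and Myo1a below WT in both libraries.

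The Muc3 ratios differed between the enterocyte-like clusters. Cluster 2 (752 cells, led by Ms4a18, 2010003K11Rik and Il18) came earliest in the lineage order and had 216, 203 and 191 CPM, with log2 ratios of 0.17 and 0.09 and intervals that overlapped. Cluster 1 (920 cells, led by Slc5a12, Cubn and Dnase1) had 226, 222 and 107 CPM, with log2 ratios of 1.05 and 1.02. Cluster 5 (400 cells, led by Akp3, S100g and Tmprss15) had 214, 250.2 and 99.1 CPM, with log2 ratios of 1.07 and 1.29. In Arid3a cKO the 3 clusters thus held similar levels, and in WT clusters 1 and 5 were below cluster 2. The small cluster 11, led by the interferon-response genes Ifit3, Ifit1bl1 and Ifit1, gave 433, 614 and 162 CPM from only 25, 14 and 19 cells. Muc3 intervals lay apart from WT on the high side in clusters 1, 5 and 11, as they did for 6.68%, 3.67% and 0.748% of all genes tested there.

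Cells before this point did not show the difference. In the large unnamed cluster 3 (741 cells, led by 1500035N22Rik, Ccl20 and Edn2), which lay between TA-like and enterocyte-like cells in the order, Muc3 measured 89.3, 69.5 and 74.1 CPM, and WT fell between the Arid3a cKO libraries. In ISC-like cells the values were 26.2, 30.8 and 29.0 CPM, and in TA-like cells 27.7, 26.8 and 28.6 CPM. Over ISC- and TA-like cells together the log2 ratios were -0.09 and -0.001, and Muc3 ranked 3780th of 5608 genes. Goblet-like cells had 31.2, 34.9 and 35.3 CPM. In each of these sets the WT interval overlapped that of at least 1 Arid3a cKO library.

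Cells from the ISC-, TA- and enterocyte-like clusters were ordered by diffusion pseudotime from an ISC-like cell and cut into 5 bins of equal cell number over all libraries. Muc3 had 22.1, 28.6 and 24.5 CPM in bin 1 and 27.8, 27.9 and 30.8 CPM in bin 2. In bin 3 it measured 145, 129.9 and 145 CPM. In bin 4 it measured 236, 239 and 135 CPM, and in bin 5 it measured 247, 255 and 86.9 CPM (605 WT UMIs, 95% interval 80.1 to 94.1). Muc3 in WT was thus lower in bin 5 than in bins 3 and 4, whose WT intervals overlapped (136.9 to 152.5 and 127.6 to 143.7 CPM), whereas in both Arid3a cKO libraries the highest value was in bin 5. With the cells of cluster 3 kept in the bins, WT was highest in bin 4, at 109, 163 and 95.5 CPM in bins 3, 4 and 5, and both Arid3a cKO libraries were again highest in bin 5, at 246 and 263 CPM. The log2 ratios were 0.78 and 0.80 in bin 4 and 1.46 and 1.499 in bin 5. The CPM-weighted mean bin was 3.97 and 3.98 in Arid3a cKO and 3.54 in WT, later by 0.43 in both. It sums up the higher values in bins 4 and 5 and is not a separate result.

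None of the other 8 genes had a WT level that dropped from bin 3 to bin 5, and their mean bins differed from WT by -0.12 to 0.06. Cdhr2, the latest of the 9 in this order, had 676, 693 and 637 CPM in bin 5, up from 159, 168 and 181 CPM in bin 3. Vil1 went from 564, 565 and 635 CPM in bin 3 to 1097, 1017 and 1161 CPM in bin 5. Apoa4, an apolipoprotein gene of the upper villus, had 8049, 8057 and 6324 CPM in bin 5 against 92.2, 268 and 97.7 CPM in bin 1. Lgr5, the stem cell marker, had 52.2, 50.7 and 42.4 CPM in bin 1 and at most 0.232 CPM in bin 5. Both genes are among the markers that named the clusters, and the order began at an ISC-like cell. Their course was therefore largely fixed in advance and is no check of the order.

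**Figure D3:**
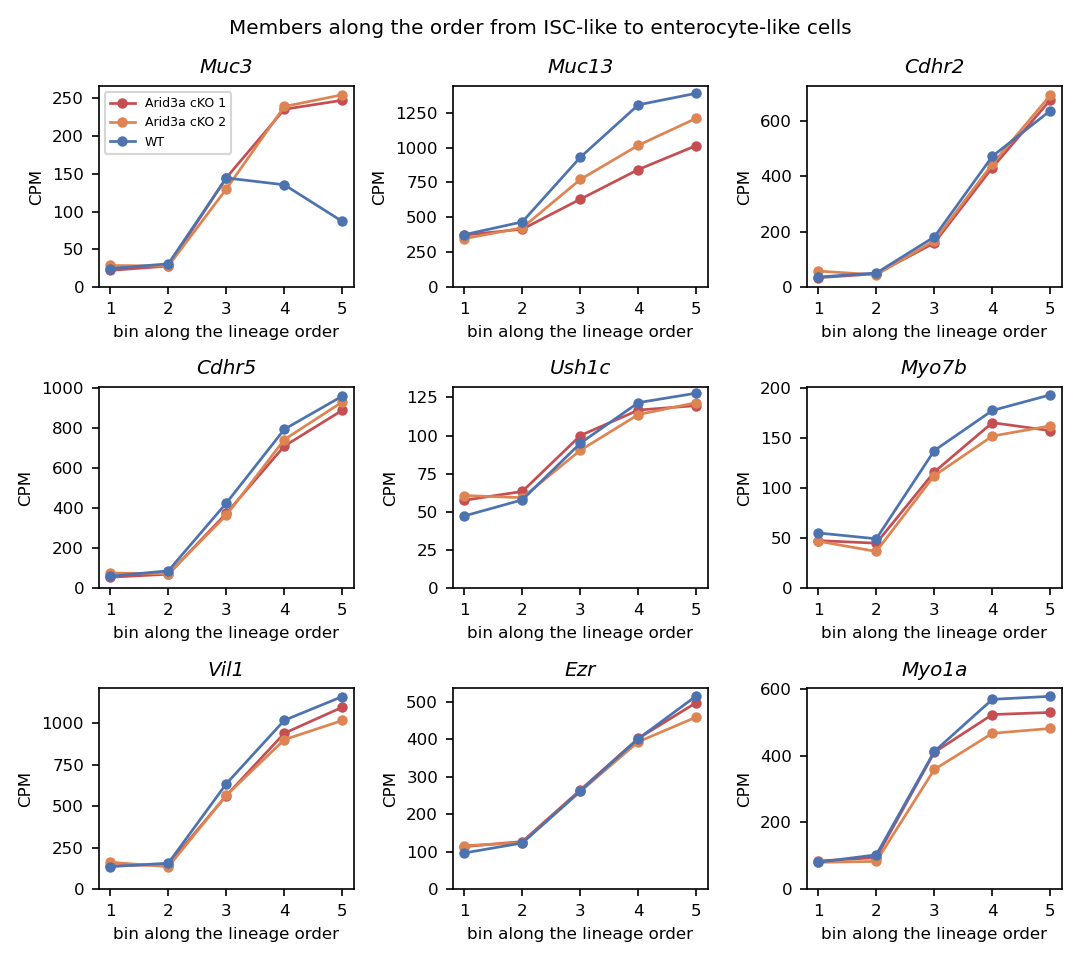
CPM of each of the 9 genes in 5 bins of equal cell number from ISC-like (1) to enterocyte-like (5) cells, 1 line per library, with a separate axis from 0 for each gene. The WT line of Muc3 goes from 145 CPM in bin 3 to 86.9 CPM in bin 5 while the Arid3a cKO lines reach 247 and 255 CPM, and each of the other genes is higher in bin 5 than in bin 3 in all 3 libraries.

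The Muc3 difference was next read cell by cell, with UMIs drawn down to 24500 per cell to make depth equal, which left out 146 of 834, 114 of 598 and 162 of 698 enterocyte-like cells. At least 1 Muc3 UMI was found in 87.8% (exact 95% interval 85.1 to 90.1%), 85.1% (81.6 to 88.2%) and 66.4% (62.2 to 70.4%) of enterocyte-like cells, and without thinning in 89.0%, 88.0% and 70.8%. Paneth-like cells, where Muc3 was lowest by CPM, gave 1 of 28, 0 of 14 (exact upper bound 23.2%) and 2 of 25 cells at the same depth, and 11.8%, 23.5% and 13.8% of cells without thinning. Their median depths before thinning were 119501, 177412 and 127390 UMIs, against 32160.0, 36319.5 and 30944 UMIs in enterocyte-like cells. ISC-like cells gave 33.1%, 43.5% and 37.8%.

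The gap opened between clusters within WT. In cluster 2 the share of cells with Muc3 was 89.7%, 84.6% and 81.1%, and the median cell had 4, 4 and 3.5 Muc3 UMIs. In cluster 1 it was 90%, 85.9% and 57.7%, with medians of 5, 4 and 1, and in cluster 5 it was 79.4%, 82.7% and 48.8%, with medians of 4, 4 and 0. Cells with 10 or more Muc3 UMIs made up 16.7%, 17.1% and 4.18% of cluster 1 and 19.1%, 22.7% and 8.14% of cluster 5. WT therefore had more cells without detected Muc3 and fewer cells with many Muc3 UMIs in both clusters. Cells of 1 library are not replicates, so these shares carry counting error only.

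**Figure D4:**
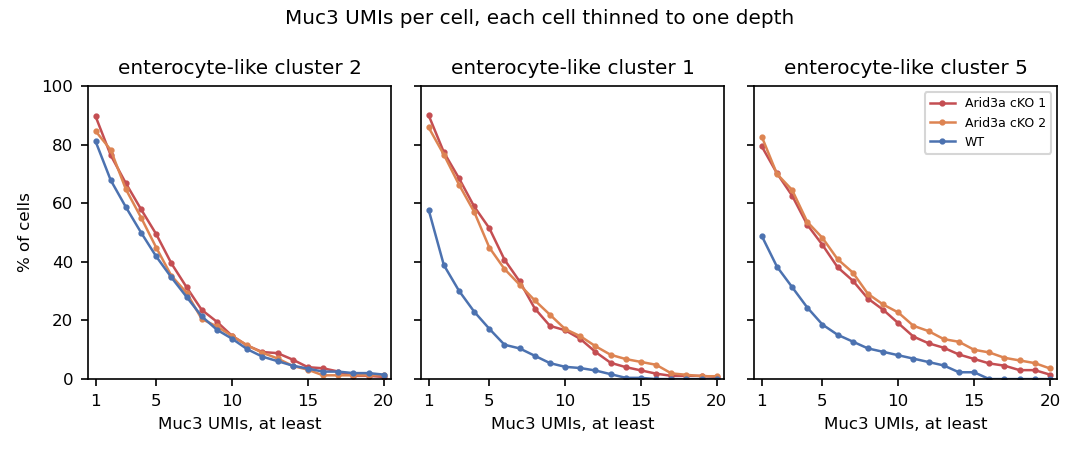
Share of enterocyte-like cells (vertical axis, %) with at least a given number of Muc3 UMIs (horizontal axis) after thinning each cell to 24500 UMIs, 1 line per library in clusters 2, 1 and 5. The 3 lines run together in cluster 2, and the WT line starts at 57.7% in cluster 1 and 48.8% in cluster 5, below Arid3a cKO values of 79.4% to 90%.

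Markers of intestinal position moved along with Muc3 in the enterocyte-like cells as a whole. The 6 genes used as proximal markers (among them Akp3 and S100g) summed to 2666, 3660.4 and 1555 CPM, and 5 of the 6 were higher in both Arid3a cKO libraries. The 5 distal markers summed to 518, 507 and 595 CPM, with 4 of 5 lower in both. Within cluster 1, where the Muc3 ratios were above 1, the proximal sums were 386, 451 and 324 CPM, and within cluster 2, where the Muc3 intervals overlapped, they were 1501, 1943 and 994 CPM. Within cluster 5, where the Muc3 ratios were also above 1, they were 9738, 12138 and 6589 CPM. The 5 colonocyte markers summed to 221, 243 and 266 CPM, with 2 of them at 0 in each library. They include Slc37a2, which was among the leading genes of cluster 5 beside Akp3 and S100g. Their sum is therefore no clear measure of colonic position here. The part of intestinal position in the Muc3 result was not tested. Lymphocyte, endothelial and stromal markers summed to at most 0.376 CPM in these cells, in any library.

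Muc13 ran opposite to Muc3. In enterocyte-like cells it measured 858 CPM (847 to 869) and 1055 CPM (1042 to 1070) in Arid3a cKO against 1284 CPM (1268 to 1299) for WT, with log2 ratios of -0.58 and -0.28. Both Arid3a cKO libraries were below WT, and they also differed from each other by 0.30 log2 units, so the size of the difference is uncertain. Unlike Muc3, Muc13 was lower in each of the 3 large enterocyte-like clusters. It had 738, 920.3 and 1182 CPM in cluster 2, 971, 1159 and 1334 CPM in cluster 1, and 857, 1053 and 1344 CPM in cluster 5. It was also lower in cluster 3 (567, 655 and 763 CPM), in goblet-like cells (878, 886 and 1057 CPM) and in ISC-like cells (385, 377 and 426 CPM). Its intervals lay below WT in these sets, as they did for 7.31%, 7.28% and 4.95% of all genes in clusters 2, 1 and 5, 5.43% in cluster 3, 2.87% in goblet-like cells and 4.24% in ISC-like cells. In TA-like cells it had 420.2, 453 and 453 CPM, where Arid3a cKO 2 matched WT.

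Transcripts of goblet, enteroendocrine and Paneth markers were also lower in sum in the enterocyte-like cells. The 11 goblet markers summed to 336, 537 and 954 CPM there, with 9 of 11 lower in both Arid3a cKO libraries, and 11504, 17663 and 17993 CPM over all cells. Enteroendocrine markers summed to 55.7, 46.9 and 95.8 CPM, with 10 of 14 lower in both and 1 higher. Paneth markers summed to 313, 254 and 377 CPM, with 5 of 10 lower in both and 3 higher. Tuft markers summed to 24.1, 8.14 and 10.6 CPM, with 3 of 12 higher in both and none lower. In cluster 5, where the goblet sums were lowest (194, 185 and 316 CPM), the Muc13 log2 ratios were -0.65 and -0.35. The part of goblet or other secretory transcripts in the Muc13 result was not tested.

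The tip-link protocadherins differed little between genotypes. Cdhr2 had 440.3, 481 and 459 CPM in enterocyte-like cells, so WT lay between the Arid3a cKO libraries. Cdhr5 had 702, 754 and 787 CPM, with log2 ratios of -0.16 and -0.06. In cluster 2 Cdhr5 was 522, 553 and 614 CPM and in cluster 3 it was 240.04, 256 and 288 CPM, both with intervals below WT, while in cluster 5 it was 789, 832 and 824 CPM, with WT between. In cluster 1 it was 830.2, 869 and 908 CPM, lower in both libraries with overlapping intervals. Along the order its intervals lay below WT in bin 2 (69.5, 71.6 and 86.3 CPM), bin 3 (374, 365 and 426 CPM) and bin 4 (711, 744 and 796 CPM). In bins 1 and 5 they did not both lie below WT. With cluster 3 kept in the bins, WT lay between the Arid3a cKO libraries in bin 2. The share of all genes meeting this rule was not computed for the bins. Of their partners at the tip, Ush1c had 116, 114 and 120.4 CPM in enterocyte-like cells with overlapping intervals. In ISC-like cells Ush1c was higher in both Arid3a cKO libraries, at 60.8, 61.4 and 51.5 CPM, with intervals above WT (as for 7.62% of all genes there). Myo7b was lower in both, with 156, 155 and 183 CPM in enterocyte-like cells and log2 ratios of -0.23 and -0.23. Myo7b was likewise lower in cluster 1 (167, 164 and 192 CPM), in cluster 2 (149, 152 and 179 CPM) and in ISC-like cells (48.7, 46.3 and 59.1 CPM).

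The genes of the microvillus core had small ratios to WT. In enterocyte-like cells the intervals of Vil1 and Myo1a lay below WT, as for 14.3% of all genes. Vil1 had 924, 911 and 1017 CPM in enterocyte-like cells, with log2 ratios of -0.14 and -0.16. It was lower in clusters 1 and 2, while in cluster 5 its values were 887, 761 and 867 CPM and WT lay between. Ezr had 407, 401 and 416 CPM with overlapping intervals. Ezr was slightly higher in both Arid3a cKO libraries in ISC- and TA-like cells, at 122.4, 122.5 and 115 CPM. Myo1a had 525, 476 and 567 CPM in enterocyte-like cells, with log2 ratios of -0.11 and -0.25. Its spread between the Arid3a cKO libraries was as wide as its distance from WT in Arid3a cKO 1.

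Over ISC- and TA-like cells the median log2 ratio was -0.04 beside 0.01 over 5608 genes, with 2 genes higher in both (Ush1c and Ezr, against 38.7% of all genes) and 6 lower (29.7%). These signs rested on small ratios, since without doublets 5 genes were higher in both (Cdhr2, Cdhr5, Ush1c, Vil1 and Ezr), 3 were lower and the median was 0.029. None reached 0.5 in both libraries, which 0.909% of all genes did. In cluster 3 the median was -0.10 beside -0.01, with Muc13 lowest at a mean of -0.32. Paneth-like cells had 34, 17 and 29 cells, so the low values there were not read further. In cluster 8 (29, 55 and 63 cells, a median of 11.8% mitochondrial UMIs, led by Gm42418 and Mir6236) Muc3, Muc13, Cdhr2, Cdhr5, Vil1 and Myo1a all had intervals above WT, as did 6.52% of all genes. Muc3 had 160.3, 203 and 46.3 CPM there. Its cells had 0.398 times the median UMIs of all kept cells, averaged over libraries, and it was in none of the classes above.

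**Figure D5:**
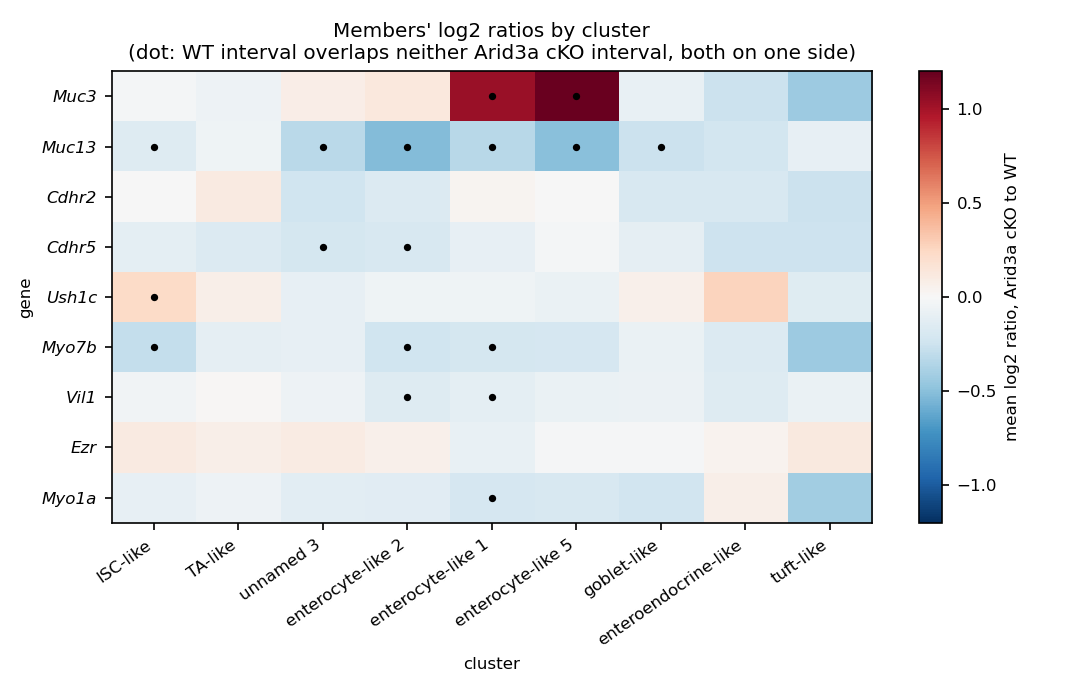
Mean log2 ratio of Arid3a cKO to WT (colour, pseudocount 5 CPM) for the 9 genes (rows) in 9 clusters (columns); a dot marks 95% counting intervals of both Arid3a cKO libraries on one side of that of WT. Muc3 is high in enterocyte-like clusters 1 and 5 and near 0 in cluster 2, cluster 3, ISC-like and TA-like cells, and Muc13 is low in most columns.

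Of 54 other listed brush border and glycocalyx genes, 51 were matched and 34 had a mean of at least 20 CPM in enterocyte-like cells. With the same sign in both Arid3a cKO libraries, 6 were higher (17.6%, beside 34.3% of all genes) and 24 were lower (70.6%, beside 41.8%), and 4 were mixed. Their median log2 ratio was -0.12, and none reached 0.5 in both libraries. The list was chosen with earlier results known and was not tested against other genes. The lower genes with the largest smaller-of-both ratios were Plekhg6 (43.6, 44.5 and 54.5 CPM), an organizer of ezrin in microvilli, Pls1 (858, 935 and 1109 CPM), the actin bundler fimbrin of the microvillus core, and Eps8 (219.8, 229.98 and 271 CPM), which caps actin at the tip. Eps8l2 (156, 160.1 and 187 CPM), a relative of Eps8, and Slc9a3r1 (505, 520.3 and 599 CPM), a PDZ scaffold that binds ezrin, followed. Of the higher genes, 2 were keratins. Krt18 had 71.3, 63.3 and 49.7 CPM and Krt19 had 1289, 971 and 893 CPM, with log2 ratios of 0.48 and 0.32, and 0.53 and 0.12. Krt18 had more in ISC- and TA-like cells, at 610, 544 and 494 CPM. The other listed keratins did not follow. Krt20 was lower in both libraries (518, 596 and 667 CPM, log2 ratios of -0.36 and -0.16). Krt8 was mixed, with log2 ratios of 0.10 and -0.07. Calml4 (837, 903 and 799 CPM), a calmodulin-like partner of Myo7b, Cobl (125, 122 and 118 CPM), an actin nucleator, and Lgals4 (4495, 4573 and 4376 CPM), a galectin of the apical membrane, were higher by less than 0.2 log2 units. In ISC- and TA-like cells 31 of the list were tested, 15 higher (48.4%, beside 38.7% of all genes) and 8 lower (25.8%, beside 29.7%), with a median of 0.065 beside 0.014 over all genes.

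To find genes with a like pattern, log2(CPM + 5) was correlated over 34 combinations of cluster and library with at least 20 cells each. These points share libraries and cell types, so r is a description. For Muc3 the most alike among 4731 genes were Bche, a cholinesterase (r = 0.951), Dhrs1 (0.951), Mpp1 (0.948), Retsat, an enzyme of retinol metabolism (0.948), and Plin3, a coat protein of lipid droplets (0.947). Within the 9 genes Muc3 was most like Ezr (0.923) and least like Cdhr5 (0.548), which was also the lowest value between any 2 of them. Cdhr2 and Cdhr5 were each other's best match among all genes (0.961). For the other genes the best matches were Fam3b for Muc13 (0.930), Pafah1b1 for Ush1c (0.966), Eps8l2 for Myo7b (0.971), Slc9a3r1 for Vil1 (0.979), Ogdh for Ezr (0.987) and C77080 for Myo1a (0.979). The highest value within the 9 genes was that of Vil1 and Myo1a (0.966).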

How the data were processed

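Libraries (3 in all) used 10x Genomics 3′ chemistry. The deposited values are unnormalised UMI counts, made by the authors with Cell Ranger 5.0.0 per the file headers. The submitters' processing notes name only human genome builds, whereas the counted genes carry mouse identifiers, so the build used for counting was not settled. Gene positions were matched by identifier to GENCODE M21. The 9 genes and all lists were chosen with earlier results of these data known. Another WT replicate that the design mentions was not analysed here.

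Cells were kept at 1000 or more genes and at most 15% mitochondrial UMIs, the limits of the study. Doublets (110 cells, 1.97%, by Scrublet in scanpy 1.11.5) were kept. Libraries were integrated in Seurat 5.3.0 (R 4.3.3, 30 components, resolution 0.3), without the 9 genes and the listed brush border genes. A cluster was named when its class had the most markers among its top 50 genes (at least 3), or else the largest share at 1.5 times or more the level of other cells, with at least 50% of the list at that level. The rule was chosen with the clusters in view. Diffusion pseudotime was computed on a graph that also held the large unnamed cluster 3, whose cells were then left out of the bins.

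CPM is the UMI count of a gene over all UMIs of the cells summed. Ratios use a pseudocount of 5 CPM, which understates changes of low genes, and shares refer to genes with a mean of at least 20 CPM. Named genes were the 9, up to 5 listed genes per direction with the largest smaller-of-both ratio, the 5 genes most alike Muc3, the best match of each other gene, and Arid3a. Genes named as cluster leaders, Gm3054, Muc3a, Apoa4, Lgr5, Krt8 and Krt20 were added after their values were seen. No test was run, since WT is 1 library. Nothing in the labels ties libraries to separate mice beyond their replicate numbers. Scaling factors were from edgeR 4.0.16 and DESeq2 1.42.0.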

Additional observations from a re-analysis of the deposited data

Results flagged for a closer look

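For 3 of the 9 genes the 2 Arid3a cKO libraries moved one way against WT in enterocyte-like cells and the other way in ISC- and TA-like cells. The same held for 12.3% of the 3968 genes tested in both sets, and the difference was not tested for any gene. Muc3 had mean log2 ratios of 0.70 in enterocyte-like and -0.04 in ISC- and TA-like cells, a difference of 0.75. Its ratio in Arid3a cKO 2 in ISC- and TA-like cells was only -0.0013, and it turned positive with the wider cell filter (0.024), at resolution 0.8 (0.00043), with TMM (0.017) and with size factors (0.029). Ush1c had -0.06 and 0.15, a difference of -0.21. Ezr had -0.04 and 0.09, a difference of -0.13. In ISC- and TA-like cells none of the 3 genes, and in enterocyte-like cells neither Ush1c nor Ezr, had counting intervals of both Arid3a cKO libraries apart from WT.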

How the results depend on the processing

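Of 290 values recomputed for 23 results under 18 alternatives, 215 stayed within the spread of the Arid3a cKO libraries or, for counts of genes, within 1.5 times, 71 moved further and 4 reversed. The mean log2 ratio of Muc3 in enterocyte-like cells (0.70) stayed positive between 0.59 and 1.06. It was 0.93 with at least 500 genes and at most 25% mitochondrial UMIs per cell, 1.02 without integration, 1.06 with clusters weighted equally, 0.59 with cluster 3 counted in and 0.67 without the interferon-led cluster, the latter 2 chosen after seeing the data. The difference in mean bin (0.43) was 0.36 with the wider cell filter, 0.44 without doublets, 0.45 at resolution 0.8, 0.43 without integration and 0.42 with the genes in the clustering. It was 0.84 with 10 bins, whose unit is 0.5 of the original bin, and 0.39 with cluster 3 in the bins, also chosen after seeing the data. The median of the 9 genes in enterocyte-like cells (-0.11) was -0.044 with the wider filter and -0.16 with cluster 3. That of the listed genes (-0.12) lay at -0.12 without doublets, -0.11 without integration, -0.10 with TMM, -0.11 with size factors, -0.13 without mitochondrial genes, -0.12 with a pseudocount of 1, -0.090 with equal weights, -0.11 with cluster 3 and -0.12 without the interferon-led cluster. In ISC- and TA-like cells the median of the 9 (-0.04) was -0.15 without integration and 0.029 without doublets, where Cdhr5 (0.029), Vil1 (0.067) and Myo1a (0.015) also changed sign, and the cause was not tested. The 77 genes at 0.5 or more in both libraries became 118 with no filter on level and 18 at 1 or more.

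Leaving out either Arid3a cKO library gave 0.69 to 0.72 for Muc3, -0.11 to -0.070 for the median of the 9, -0.12 to -0.12 for the listed genes, -0.048 to -0.012 for the 9 in ISC- and TA-like cells, 0.43 to 0.43 for the order, and 123 genes each time, since 1 library then meets the limit. WT could not be left out, and no test was run. No paired analysis was possible because just replicate number 1 occurs in both groups. All intervals cover counting error only.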
